A study of Mus musculus with 12 samples.

Results

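The miR-15/16 family with its relatives miR-322 and miR-503 was examined in quadriceps muscle of mice with and without cofilin-2, a muscle protein that severs and recycles actin filaments. Its 7 members were found by name among the 1096 mouse miRNA names of the array, as mmu-miR-15a, mmu-miR-15b, mmu-miR-16, mmu-miR-195, mmu-miR-497, mmu-miR-322 and mmu-miR-503, and are written without the species prefix from here on. The passenger strands, whose names end in a star, are no members. The samples were 6 cofilin-2 null mice (KO1 to KO6) and 6 wild-type mice (WT1 to WT6), all of strain C57Bl/6 and all at postnatal day 7, with 1 quadriceps sample per mouse. The wild-type mice were littermates of the null mice, and the sources used here name no promoter or Cre that would limit the loss to 1 tissue. Per the labels, WT was labelled with Cy5 and KO with Cy3 throughout, so dye and genotype cannot be told apart. An array of miRNAs has no probe for Cfl2, so the genotypes were not checked.

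A miRNA is a short RNA that lowers the output of mRNAs that pair with its seed, the bases near its 5′ end. The miR-15/16 family is known for holding back cell division: its targets include the cyclins D1 and E1, the checkpoint kinases WEE1 and CHEK1 and the survival protein BCL2. In muscle, miR-322 and miR-503 are known to promote exit from the cell cycle during myoblast differentiation by lowering the phosphatase CDC25A, and miR-195 and miR-497 are known for cell-cycle arrest in muscle stem cells and in the heart after birth.

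The mature sequences are shown because the shared seed is what makes these miRNAs a family. They are from RefSeq (GRCm38.p6), written 5′ to 3′, with the seed, bases 2 to 8, in capitals.
miR-15a: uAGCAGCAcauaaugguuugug
miR-15b: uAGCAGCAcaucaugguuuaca
miR-16: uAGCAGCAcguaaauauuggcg
miR-195: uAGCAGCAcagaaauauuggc
miR-497: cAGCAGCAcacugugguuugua
miR-322: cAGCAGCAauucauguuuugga
miR-503: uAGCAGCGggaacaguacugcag
The seed AGCAGCA was shared by 6 members, and miR-503 carried AGCAGCG. Among the 1679 mature mouse names of the RefSeq table, AGCAGCA was the seed of 10. Over the whole mature sequence the members differed more. miR-16 and miR-195, the closest pair, were 3 edits apart. miR-322 and miR-503, which lie next to each other on the X chromosome, were 11 edits apart, their seeds included. Whether the array's probes separated near neighbours such as miR-16 and miR-195 is not given in the sources used here.

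The members come from 4 clusters. On chromosome 14, Mir15a (mature strand at chr14:61632075-61632096, minus strand) and Mir16-1 (chr14:61631936-61631957) lie within the long noncoding RNA gene Dleu2. On chromosome 3, Mir15b (chr3:69009775-69009796, plus strand) and Mir16-2 (chr3:69009918-69009939) lie within Smc4, which encodes a condensin subunit. Both Mir16 genes give the same mature miR-16, so its value sums the output of both clusters. On chromosome 11, Mir497 (chr11:70234730-70234751, plus strand) lies beside Mir195a (chr11:70235062-70235082). On the X chromosome, Mir322 (chrX:53054306-53054327, minus strand) and Mir503 (chrX:53054027-53054049) lie within the long noncoding RNA gene C430049B03Rik.

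The values are array intensities that the authors had normalized, on a linear scale and with no unit of mass or molecules, and they compare the same miRNA between samples but not one miRNA with another. The summed intensity of a sample was between 594311 and 636136, and the middle intensity among all names was 12 to 14 in each sample, so a value near that is dim. KO and WT were compared with limma, a linear model fitted across all miRNAs, on log2 intensities of the 370 miRNAs whose intensity averaged 32 or more over the samples. The Benjamini-Hochberg adjusted p is over these 370, and the threshold was 0.05, before adjustment (as in the methods) and after it. The muscle miRNA miR-206 was bright in every sample, at 21266 to 29194, as were miR-133a at 5151 to 11466 and miR-1a, the name of mouse miR-1 on the array, at 39535 to 71199, whereas the sum of miR-9, miR-124 and miR-122, markers of brain and liver, was 8 to 30 in WT and 9 to 42 in KO. The muscle marker miR-486 was not found by that name on the array, and miR-499 was dim, at 3 to 30. KO1 stood apart from the other samples: it was the lowest of all 12 samples for 24.6% and the highest for 19.5% of the 370 miRNAs, and values without it are given beside the results. The p-values set the difference between the genotypes against the spread between the 6 mice within each group. limma draws this spread partly toward that typical of all miRNAs tested, and the exact permutation tests do not.

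Of the 7 members, 6 were bright enough to be tested, and 2 of them, miR-16 and miR-503, were lower in KO at the unadjusted threshold. No member was higher, and none passed after adjustment over all 370. Among all 370 miRNAs, 9.73% were lower at the unadjusted threshold and 1.35% passed after adjustment in either direction. The log2 change, KO minus WT, was below 0 for 5 of the 6 tested members, against 56.8% of all miRNAs tested, and the median change was -0.48 against -0.08. For no member, the untested one included, did the KO and WT samples separate completely. This was rare among all miRNAs tested too, at 0.811% with KO lower and 1.62% with KO higher, so it does not set the members apart.

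**Figure D1:**
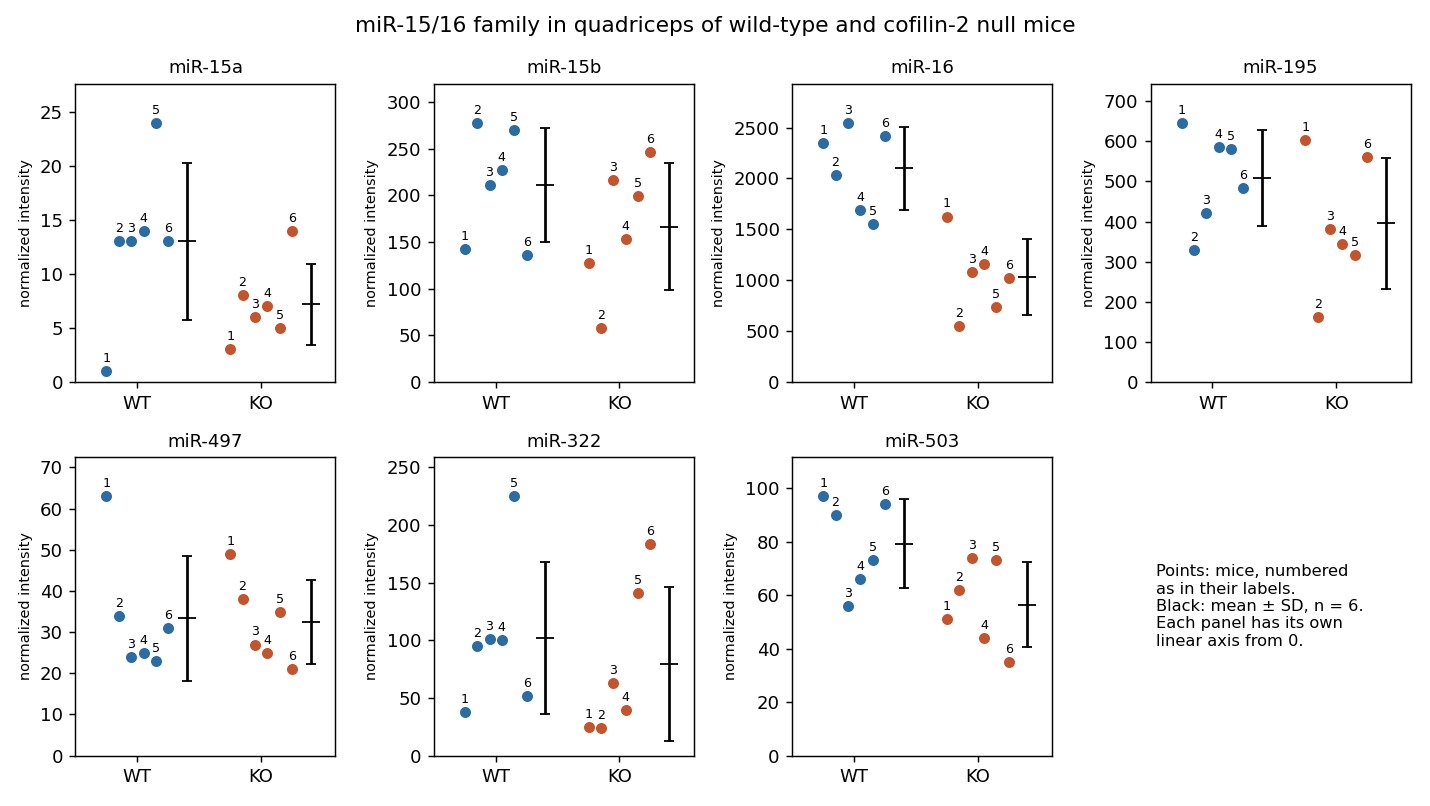
Normalized intensity of the 7 members in each mouse, on a linear axis from 0 for each member, with WT in blue and KO in orange. The numbers are those in the sample labels and the black bars are the mean ± SD (n = 6). For miR-16, all KO points except KO1 lie below all WT points, whereas the groups of the other members overlap more.

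The member that differed most between the genotypes was miR-16, the namesake of the family and a repressor of cyclins D1 and E1. Its intensity was 2353, 2035, 2550, 1689, 1548 and 2416 in WT1 to WT6 and 1626, 545, 1085, 1155, 734 and 1017 in KO1 to KO6. In 5 of the 6 KO mice it was below every WT mouse, and only KO1 reached into the WT range, above WT5. The means were 2098.5 ± 411 in WT and 1027 ± 373 in KO (SD, n = 6). The fall of 1.09 on the log2 scale (change -1.09, SE 0.26, 95% interval -1.65 to -0.53) corresponds to a KO level 0.470 times that of WT, with an interval of 0.318 to 0.694. limma gave an unadjusted p of 0.00103, rank 6 of the 370 miRNAs, and an adjusted p of 0.0586, and the exact permutation test over the samples gave p = 0.00433. By size, it was the fifth largest fall of the 370, as the plot of all tested miRNAs shows. Without KO1 the change was -1.24 with a limma adjusted p of 0.0103, in a fit in which 13.2% of all 370 miRNAs passed after adjustment. Leaving out each mouse in turn, the adjusted p from limma ran from 0.0103 to 0.147, past the threshold without KO1 and without WT4 (0.0470), and the unadjusted p passed in all 12 fits.

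**Figure D2:**
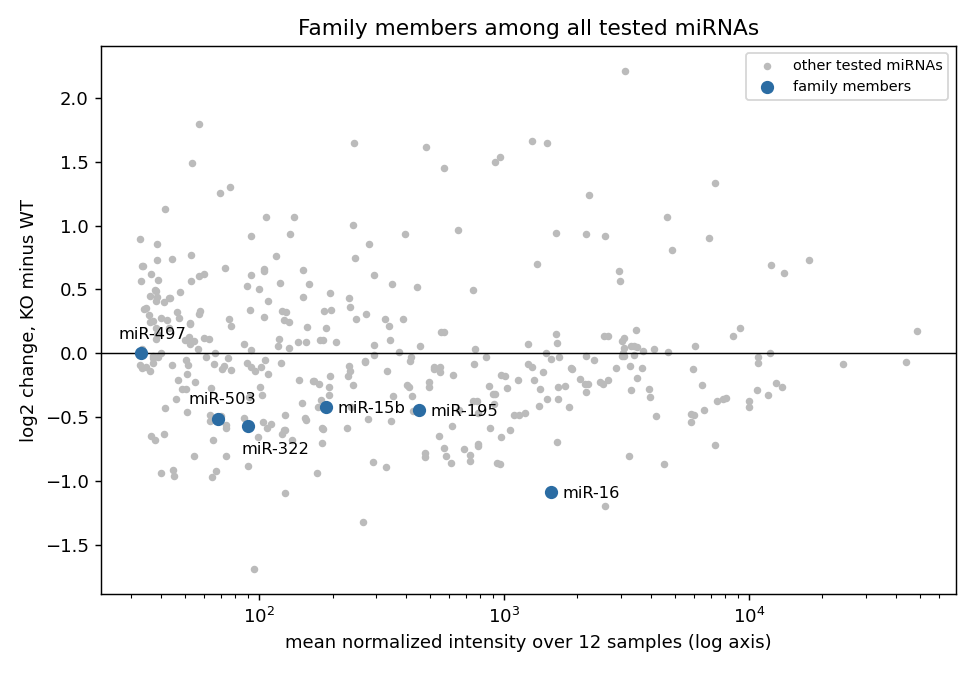
Change from WT to KO (log2, vertical axis) against the mean normalized intensity over the 12 samples (log axis) for the 370 tested miRNAs, with the 6 tested members in blue. miR-16 lies at -1.09, near the lower edge of the cloud, and the other members lie between -0.57 and 0.

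In bulk muscle, fewer cells of a type and less RNA per cell cannot be told apart, and 1 marker of another cell type passed the unadjusted threshold in the same samples. The endothelial miR-126-3p was lower in KO by about as much as miR-16, with a change of -1.20 that passed the unadjusted threshold (limma adjusted p = 0.0615; -1.32 and 0.0242 without KO1, where 13.2% of all 370 passed), and ran from 2230 to 4741 in WT and from 760 to 2705 in KO. It was 1 of 2 endothelial markers, whose summed intensity was 2233 to 4745 in WT and 765 to 2709 in KO; the other, miR-126-5p, was at 1 to 6. Of 6 blood cell markers, only miR-451, a miRNA of red blood cells, was bright enough to be tested, at 43 to 417 in WT and 16 to 318 in KO, with a change of -0.94 that did not pass (limma adjusted p = 0.497). The summed blood markers, of which miR-451 was the brightest, were 102 to 475 in WT and 51 to 372 in KO. Among the dim ones, miR-144 and miR-142-3p were between 0 and 7, miR-223 between 2 and 15 and miR-142-5p between 1 and 13. miR-150, just too dim to be tested, was at 15 to 41 in WT and 20 to 48 in KO. Its mean was higher in KO (33.8 against 28.7), whereas those of miR-144, miR-142-5p and miR-223 were lower, and miR-142-3p was at 2.5 in WT and 2.67 in KO. Of the smooth muscle markers, miR-143 had a change of -0.02 and miR-145 of -0.60, neither past the threshold. The muscle miRNAs miR-1a, miR-133a, miR-133b and miR-206 did not pass either. The part of endothelial or blood cells in the value of miR-16 was not tested.

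Its cluster partners did not pass the test. For miR-15b, which shares the Smc4 locus with Mir16-2, the intensity ran from 136 to 278 in WT (median 219) and from 58 to 246 in KO (median 176). The groups overlapped, with KO1 and KO2 alone below all WT mice. The means were 211 ± 61.0 and 167 ± 68.3 (SD, n = 6), and the change was -0.42 (95% interval -1.16 to 0.31, limma adjusted p = 0.549; exact permutation p = 0.273). miR-15a, from the Dleu2 locus, was too dim to be tested. It was at 1, 13, 13, 14, 24 and 13 in WT1 to WT6 and at 3, 8, 6, 7, 5 and 14 in KO1 to KO6, values close to or below the 12 to 14 of the middle miRNA except in WT5. An exact permutation test of the difference gave p = 0.481. For neither partner was the difference between the genotypes larger than the spread between mice.

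Whether the partners of a cluster differed from each other in their response was tested from the log2 difference between them in each mouse. The difference between miR-15b and miR-16 shifted by 0.67 from WT to KO (SE 0.40), with an exact permutation p of 0.126 and 0.502 after adjustment over the 4 pairs. For miR-15a and miR-16 the shift was 0.53 (SE 0.85, exact permutation p = 0.619, adjusted 0.825). With miR-15a raised to a floor of 32 that pair passed, but then miR-15a was constant by construction and the test repeats that of miR-16. Hence a different response of the partners was not shown at the main settings, and with standard errors of this size a similar response was not shown either.

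miR-195 and miR-497, the chromosome 11 pair, overlapped widely between the genotypes. miR-195 ran from 328 to 647 in WT (median 533) and from 162 to 603 in KO (median 363.5), with KO2 and KO5 below all WT mice. Its means were 508 ± 119 and 395 ± 164 (SD, n = 6), and its change was -0.45 (95% interval -1.11 to 0.21, limma adjusted p = 0.464; exact permutation p = 0.184). This is smaller than the change of miR-16, from which its sequence differs by 3 edits, but the interval includes a fall of the same size. miR-497 was dim, with a mean of 32.9, just above the minimum of 32. It ran from 23 to 63 in WT (median 28) and from 21 to 49 in KO (median 31), highest in the mice numbered 1 of both groups, with a change of 0.00 (95% interval -0.61 to 0.62, limma adjusted p = 0.998). The shift of the difference between miR-195 and miR-497 was -0.45 (SE 0.43, exact permutation p = 0.338, adjusted 0.675).

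The X-linked members, which are linked to cell-cycle exit of myoblasts, are described next, first miR-503. miR-503 was at 97, 90, 56, 66, 73 and 94 in WT1 to WT6 and at 51, 62, 74, 44, 73 and 35 in KO1 to KO6. All 6 KO mice were below the WT median of 81.5, and 3 of them were below every WT mouse. The means were 79.3 ± 16.8 and 56.5 ± 15.9 (SD, n = 6), a fall of 0.51 on the log2 scale (SE 0.24, 95% interval -1.02 to -0.0029). That is a KO level 0.701 times that of WT, with a limma p of 0.0489 before adjustment and 0.251 after it, and an exact permutation p of 0.0476. The unadjusted p lay close to the threshold, and with 1 mouse left out it ran from 0.0288 to 0.114 in the limma fits, past the threshold in 4 of 12 (without WT3, WT4, KO3 or KO5). It did not pass with the replicate number as a block (0.0851 from limma, 0.0662 with cyclic loess as well), with quantile normalization (0.0606), a pseudocount of 50 (0.0731), no filter (0.0741), a variance trend with robust estimation (0.0769) or array weights (change -0.22, 0.311).

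miR-322 was the most variable of the 6 tested members. Its intensity was 38, 95, 101, 100, 225 and 52 in WT1 to WT6 and 25, 24, 63, 40, 141 and 184 in KO1 to KO6, a span of 9.38-fold over the 12 mice. WT5 was highest and KO6 next, while KO1 and KO2 were lowest, so that mice of both genotypes stood at the top. Its spread within groups was 1.09 (SD of log2), rank 33 from the most variable of the 370 miRNAs, whose median was 0.55, and that of miR-503 was 0.38, rank 293. The means were 102 ± 66.0 and 79.5 ± 67.2 (SD, n = 6), and the change of -0.57 (95% interval -1.77 to 0.63) did not pass (limma adjusted p = 0.653; exact permutation p = 0.364). The shift of the difference between miR-322 and miR-503 was -0.06 (SE 0.72, exact permutation p = 0.929, also after adjustment). The estimate for miR-322 was thus close to that of miR-503, but its interval held both a rise and a fall.

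Of the other miRNAs of the X-linked cluster, 8 were on the array and 2 were bright enough to be tested. miR-351, which lies beside miR-322 and miR-503, ran from 1498 to 2896 in WT and from 1586 to 2505 in KO, with a change of -0.21 (95% interval -0.68 to 0.27, limma adjusted p = 0.685). miR-542-3p was at 15, 26, 25, 57, 144 and 32 in WT1 to WT6 and at 12, 20, 64, 40, 60 and 106 in KO1 to KO6, with a change of 0.10 (limma adjusted p = 0.958) and a within-group SD of 1.16, rank 21. Like miR-322, it was highest in WT5 and next in KO6. The same 2 mice were the highest for the dim miR-450a, at 102 and 92, where the other 10 mice were at 2 to 44. The remaining 5 companions had means between 3.67 and 20.3. Among them, the dim miR-450b-3p was at 16 to 33 in WT. In KO it was highest of all mice in KO6, at 40, and at 7 to 13 in the other KO mice. It was too dim to be tested.

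Here the passenger strand of a precursor is the starred arm, opposite to the member. Such an arm is usually degraded, but the label follows the name and not the level. Mean intensities were 2175 for miR-322*, 776 for miR-15a* and 295 for miR-503*, against 90.7, 10.1 and 67.9 for the unstarred arms. All other passenger strands on the array had lower means than their members. As intensities do not compare one miRNA with another, which arm was more abundant was not tested. Of the 8 passenger strands on the array, 5 were tested: none passed, all 5 had a change below 0, and their median change was -0.33. miR-16-1*, the opposite arm of Mir16-1 on chromosome 14, was at 58 to 112 in WT (median 79) and 17 to 132 in KO (median 53.5), with a change of -0.57 (95% interval -1.45 to 0.32, limma adjusted p = 0.490). miR-15a* was at 568 to 1029 in WT and 272 to 1029 in KO, with a change of -0.37 (limma adjusted p = 0.576). miR-195* had a change of -0.33 (limma adjusted p = 0.567). The passenger strands of the X-linked genes had changes near 0: miR-322* was at 1783 to 2526 in WT and 1855 to 2717 in KO (-0.02, 95% interval -0.40 to 0.36), and miR-503* at 183 to 340 in WT and 58 to 503 in KO (-0.02, 95% interval -0.97 to 0.94). The dim miR-15b*, miR-16-2* and miR-497* had means of 4.75, 6.00 and 5.92.

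**Figure D3:**
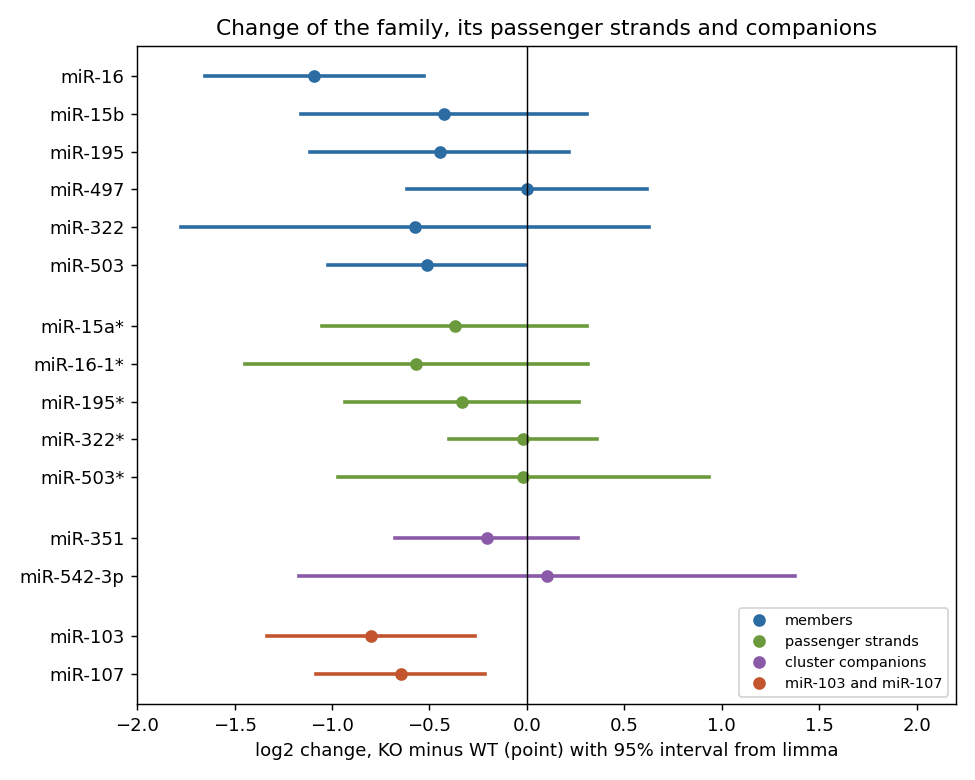
Change from WT to KO on the log2 scale (points) with its 95% interval from limma (lines) for the tested members, passenger strands, companions of the X-linked cluster and miR-103 and miR-107. Of the members and their strands, only miR-16 and miR-503 have intervals that leave out 0, and that of miR-503 ends at -0.0029.

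The lowest values came largely from a few mice, and the mouse that was most often lowest differed between the strands. KO2 was the lowest of all 12 mice for 4 of the 6 tested members, miR-15b, miR-16, miR-195 and miR-322, with a median of -1.71 against the WT mean on the log2 scale, and it was lowest for 13.0% of all 370 miRNAs. KO6 was lowest for the other 2 members, miR-497 and miR-503. KO1 was lowest for 4 of the 5 tested passenger strands, with a median of -1.61, against 24.6% of all 370. It was also lowest for the companion miR-542-3p, at 12, and nearly as low as KO2 for the member miR-322, at 25 against 24. Without KO1 the changes of miR-15a* and miR-16-1* were -0.12 and -0.24, that of miR-195* was -0.15, and that of miR-503* was 0.42 (limma adjusted p = 0.259). Without KO1 the change of miR-322 was -0.33 and that of miR-542-3p was 0.45. Without KO2 the change of miR-16 was -0.92 (limma adjusted p = 0.0838), still past the unadjusted threshold, whereas the changes of miR-15b, miR-195 and miR-322 moved closer to 0, to -0.15, -0.22 and -0.32.

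**Figure D4:**
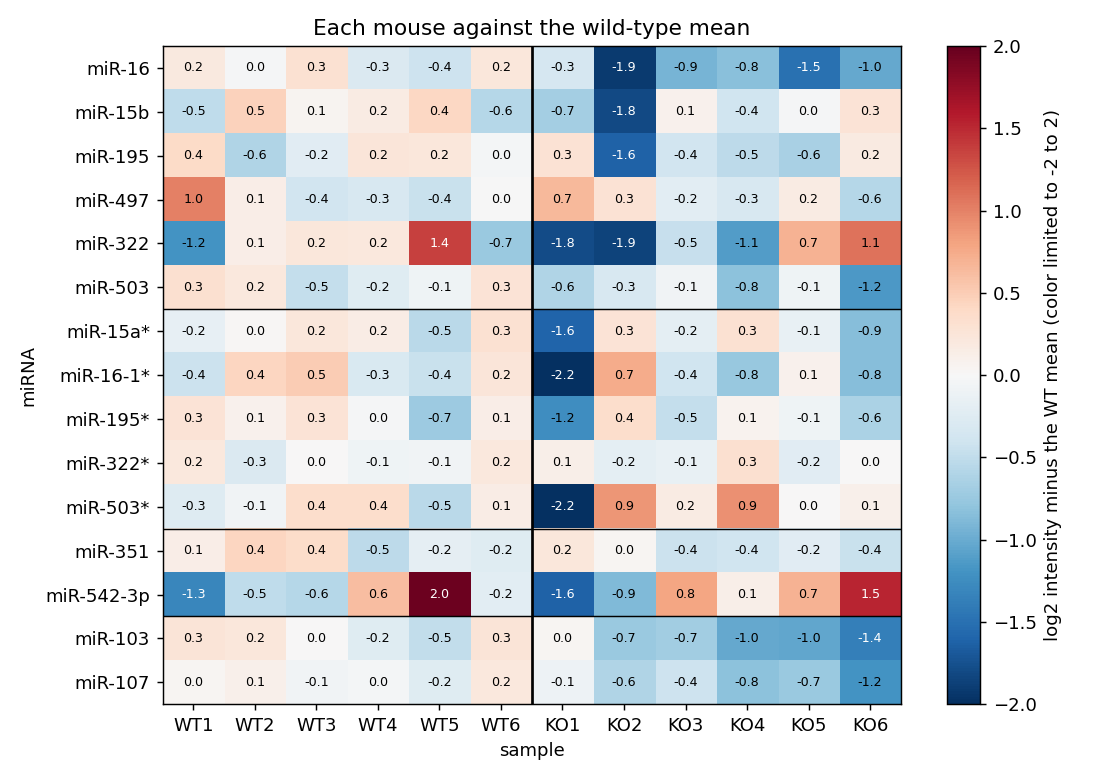
Log2 intensity of each mouse (columns) minus the WT mean for the tested members, passenger strands, companions and miR-103 and miR-107 (from top to bottom), with blue below and red above the WT mean and colors limited to -2 and 2. The column of KO2 is dark blue for miR-16, miR-15b, miR-195 and miR-322, and that of KO1 for miR-15a*, miR-16-1*, miR-195* and miR-503*.

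miR-103 and miR-107, which lie in introns of pantothenate kinase genes, are often grouped with the family. Their sequence begins with AGCAGCA, the seed of 6 members, 1 base earlier than in those members. Their seeds, in capitals, are therefore different, and the 2 sequences are shown to make the offset visible.
miR-103: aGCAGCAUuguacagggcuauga
miR-107: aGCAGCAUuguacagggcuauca
Both were lower in KO at the unadjusted threshold and not after adjustment. miR-103 ran from 636 to 1075 in WT (median 976) and from 349 to 926 in KO (median 492), with a change of -0.80 (95% interval -1.33 to -0.27, limma adjusted p = 0.0955; exact permutation p = 0.0130). miR-107 ran from 551 to 755 in WT (median 654) and from 285 to 606 in KO (median 410), with a change of -0.65 (limma adjusted p = 0.0955; exact permutation p = 0.00433). As for miR-16, 5 of the 6 KO mice were below every WT mouse and KO1 was the exception. Without KO1 their limma adjusted p-values were 0.0154 and 0.0247, again against 13.2% of all 370 miRNAs past the threshold.

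Cell-cycle miRNAs outside the family were chosen as p53-related or for the seed of miR-34. Of these 11 names, from the miR-34 and miR-449 families and miR-192, miR-194 and miR-215, 4 were bright enough to be tested. None of the 4 passed the unadjusted threshold, which 19.5% of all 370 miRNAs did in either direction, and their median change was 0.14. Their changes were 0.33 for miR-34b-3p, -0.27 for miR-34c*, 0.15 for miR-192 and 0.12 for miR-215. KO1 was the lowest mouse for both miR-34b-3p (37) and miR-34c* (95), and without it their changes were 0.76 (limma adjusted p = 0.226) and 0.33 (limma adjusted p = 0.586), so that the sign for miR-34c* rested on KO1. Without KO1 the change of miR-215 was 0.28. The tested miR-34 names were the arms opposite to miR-34b-5p and miR-34c. miR-34a, miR-34b-5p, miR-34c, miR-194 and the miR-449 names were too dim to be tested. The brightest of these, miR-34a, had a mean of 26.8, at 21 to 49 in WT and 13 to 47 in KO.

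The miRNAs whose profile over the 12 mice was most like the mean profile of the tested members, by the root mean square difference of log2 values each centred on its own mean, were miR-487b (0.254), miR-370 (0.258) and miR-20a (0.262), where the median of all other tested miRNAs was 0.640. A miRNA with the same value in every mouse would score 0.361, so the measure also favours miRNAs that vary little. In centred log2 units, the members' mean profile was lowest in KO2 (-0.95) and highest in WT5 (0.43). miR-20a, of the miR-17-92 cluster, was likewise lowest in KO2, at 156 against 194 to 521 in the other mice, with a change of -0.53 (limma adjusted p = 0.277). miR-370 was at 70 to 107 in WT and 49 to 74 in KO, with a change of -0.51 that passed the unadjusted threshold alone (limma adjusted p = 0.132), and miR-487b had a change of -0.31 (limma adjusted p = 0.379).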

How the data were processed

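The authors deposited a normalized intensity for each of 1096 miRNA names in each of 12 samples, as whole numbers on a linear scale; the methods state that the data were normalized, and the normalization, background correction and averaging of spots are not given in the sources used here. Samples were grouped by the genotype in their labels, and all were used. From the deposited intensity, values under 1 were raised to 1 and log2 values were taken. miRNAs with a mean of at least 32 were tested with lmFit and eBayes of limma 3.58.1 under R 4.3.3, as two-sided tests with Benjamini-Hochberg adjustment over the 370 tested. Exact permutation tests were two-sided over the 924 assignments of 6 of the 12 samples, with a smallest possible p of 0.00216. The test was checked on simulated data. The named miRNAs are the 7 members, the tested companions, passenger strands and seed-related miRNAs, and the 3 with the most similar profile. Members and lists were chosen with earlier results of these data known. All 25 names looked up matched a RefSeq mature sequence (GRCm38.p6). Arrays give no counts, and the number of mice limits the precision. The alternatives tried were other low-value settings (a pseudocount of 50 or a floor of 32), testing all names or those with a mean of at least 500, cyclic loess, quantile normalization or median centring, a replicate block, the methods' t-test, array weights, a variance trend with robust estimation, and leaving out each mouse. Plots were drawn with matplotlib 3.10.9.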

Additional observations from a re-analysis of the deposited data

Results flagged for a closer look

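The 7 members, the 8 passenger strands, the 8 companions, miR-103 and miR-107, and the 3 miRNAs with the most similar profile were searched, on log2 intensities, for single mice far from the other 5 of their group, by the gap to the nearest mouse as a share of the group's range (Dixon's test at its 95% critical value). Of 56 groups, 5 had such a mouse, and chance gives about 2.8. For the dim miR-15a, WT1 was at 1 and the other WT mice at 13 to 24, a gap of 0.807 of the log2 range. For miR-195*, WT5 was at 229 and the other WT mice at 373 to 456, a gap of 0.708, and without WT5 the change was -0.48. For miR-503*, KO1 was at 58 and the other KO mice at 268 to 503, a gap of 0.709, and without KO1 the change was 0.42 in place of -0.02. For the dim miR-15b*, KO4 was at 1 and the other KO mice at 4 to 9, a gap of 0.631. For the dim miR-450b-3p, KO6 was at 40 and the other KO mice at 7 to 13, a gap of 0.645.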

How the results depend on the processing

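The change of miR-16 stayed below 0 and past the unadjusted threshold under every alternative run, from -1.24 to -0.92. After adjustment it passed, as the 1 member that did, with a pseudocount of 50 (-1.05, adjusted p = 0.0396), a mean of at least 500 (-1.09, 0.0208), quantile normalization (-1.11, 0.0487), a variance trend with robust estimation (-1.09, 0.0276) and array weights (-1.17, 0.00175). Of all miRNAs tested, 3.78%, 14.6%, 2.16%, 3.78% and 31.1% passed under these settings, in this order, against 1.35%. The count past the adjusted threshold was 1 there and 0 to 1 when leaving out each mouse. The count past the unadjusted threshold fell from 2 to 1 under a pseudocount of 50, no filter, a mean of at least 500, quantile normalization, the replicate block with and without cyclic loess, the variance trend and array weights, and was 1 to 2 when leaving out each mouse. The members' median was -1.09 with a mean of at least 500, where miR-16 alone was tested, and -0.57 to -0.27 when leaving out each mouse. The change of miR-497 turned below 0 with a floor of 32 (-0.0121), a pseudocount of 50 (-0.0062), median centring (-0.0444), quantile normalization (-0.0725), cyclic loess with or without the block (-0.13) and array weights (-0.00995), and ran from -0.13 to 0.21 without single mice. Cyclic loess turned miR-322* (0.0762) and miR-503* (0.15), and array weights miR-503* (0.17). Without single mice they ran from -0.0871 to 0.0250 and -0.21 to 0.42, and miR-542-3p from -0.18 to 0.49. Array weights turned miR-34c* (0.28), miR-192 (-0.0524) and miR-215 (-0.23), and without single mice miR-34c* ran from -0.56 to 0.33 and miR-215 from -0.0970 to 0.30. The shift between miR-15a and miR-16 was 1.09 (adjusted p = 0.0173) with a floor of 32 and 0.91 (0.0433) with a pseudocount of 50, and -0.16 to 0.89 without single mice. That between miR-322 and miR-503 was 0.0669 and 0.00281 under the same settings and -0.52 to 0.23 without single mice. Apart from the floor and the minimum mean, the cause was not tested. The replicate block left the change of miR-16 at -1.09 with a limma adjusted p of 0.0741. The methods describe pairs of null mice and wild-type littermates, and whether the sample numbers mark these pairs is not given. Samples of one number correlated at -0.45 to 0.59, and KO1, KO4 and KO5 correlated best with their own number. These correlations cannot decide the pairing, so the main test did not use it and the replicate block is given beside it. The dim miR-15a pair had no value under quantile normalization and cyclic loess. The methods' t-test kept both counts.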
